A study of Mus musculus with 17 samples.

Results

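Mouse liver progenitor cells that were cultured under a hepatocyte differentiation condition were set against cells of the same kind cultured under a cholangiocyte differentiation condition, gene by gene, on one-colour oligonucleotide arrays. The comparison held the 4 arrays titled Diff_Hepatocyte and the 3 arrays titled Diff_Cholanglocyte, 7 of the 17 arrays of the series, chosen by title alone. Arrays of 4 undifferentiated cultures gave the starting level of each gene, and those of 4 primary hepatocyte and 2 primary cholangiocyte samples gave the same contrast in cells of the liver itself. All samples came from mice 6 to 10 weeks old that carried Foxl1-CRE and the Rosa26R reporter of yellow fluorescent protein, so every group shared both alleles. In such mice Cre is driven by the Foxl1 promoter and marks the cells that use it, and their descendants, in yellow. The labels name no agent, medium or culture time for either condition and leave it unsaid if replicates are different animals, or different cultures. The p-values below therefore measure the spread between arrays, which may be technical. That spread is pooled over the groups of all 17 arrays, so groups outside a comparison also enter its p-values. The series set cells differentiated in culture beside primary cells.

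Hepatocytes make most proteins of blood plasma, carry out the urea cycle and gluconeogenesis, and detoxify drugs with cytochromes P450. Cholangiocytes line the bile ducts, modify bile and are marked by keratins 7 and 19 and the transcription factor Sox9. Both arise from a shared precursor in the embryo, and in the injured adult liver Foxl1 marks cells that can take either fate. During inflammation, interleukin-6 acting through Stat3 makes hepatocytes secrete acute phase proteins such as fibrinogen and serum amyloid A.

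The 75th percentile of the deposited intensity, the level to which each array was scaled, was 1909 to 2202 on the 4 hepatocyte-condition arrays and 1747 to 2022 on the 3 cholangiocyte-condition arrays, and 25824 to 28849 and 27213 to 27860 probes were well above background. Levels below are log2 intensities relative to that percentile, and a difference is the mean of the hepatocyte condition minus the mean of the cholangiocyte condition. Arrays of the same condition correlated at a mean r of 0.965 (hepatocyte) and 0.97 (cholangiocyte) across genes, and arrays of different conditions at 0.94. A first principal component with 42.8% of the variance over the 7 arrays separated the conditions. The second, with 20.4%, separated hepatocyte-condition arrays 1 and 3 (scores 66.6 and 73.6) from arrays 2 and 4 (scores -74.8 and -94.7).

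Of 25977 genes, 1811 (6.97%) were higher and 2184 (8.41%) were lower in the hepatocyte condition than in the cholangiocyte condition at an adjusted p under 0.05 (limma, Benjamini-Hochberg adjustment over all genes), 15.4% in all. The higher genes moved further: 279 of them differed by at least 16-fold, against 64 of the lower genes, and 1374 and 1186 by at least 2-fold. On every hepatocyte-condition array 11% of all genes lay above, and 16.9% below, all 3 cholangiocyte-condition arrays, 27.8% together. The median difference of all genes was -0.13. Without cholangiocyte-condition array 1 or 2 the lower genes numbered 1383 and 1384, and without hepatocyte-condition arrays 2 and 4 together they numbered 1029. On each of 3 slides lay 1 array of each condition, and within these slides 99.4% to 99.9% of the called genes kept the sign of their difference, a description only, since 1722 of the 1811 and 2110 of the 2184 did not overlap between the conditions.

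Fgb and Kng1, genes of blood proteins, were higher in the hepatocyte condition, and Ccl7 and Ptgs2, genes of inflammation, were lower. Fgb, the fibrinogen beta chain, read 8.47, 8.43, 8.69 and 8.18 on the hepatocyte-condition arrays, against -2.43, -1.56 and -4.69 on the cholangiocyte-condition arrays. Its levels were near one another on all 4 hepatocyte-condition arrays and did not overlap the other condition (difference 11.34 ± 1.48 SE, limma adjusted p = 0.000234). Kng1, the precursor of bradykinin, read 7.26, 4.79, 7.97 and 2.90 in the hepatocyte condition, against -4.40, -4.70 and -5.34 in the cholangiocyte condition (difference 10.54 ± 1.49, limma adjusted p = 0.000404). Ccl7, a chemokine that draws monocytes, ran the other way with -2.66, -1.38, -1.73 and -2.27 in the hepatocyte condition, against 4.81, 5.45 and 4.07 in the cholangiocyte condition (difference -6.78 ± 0.53, limma adjusted p = 4.56e-06). Ptgs2, the inducible cyclooxygenase that starts prostaglandin synthesis, read -1.45, -1.59, -3.60 and -1.54 in the hepatocyte condition, against 3.12, 3.98 and 4.79 in the cholangiocyte condition (difference -6.01 ± 0.59, limma adjusted p = 2.62e-05). None of these 4 genes overlapped between the conditions.

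Each of the 4 levels was read from a 60-base probe of the array, shown here because the values above are the signal of these sequences and of any transcript that pairs with them. In the coordinates of the scanner files (mm9), the Fgb probe lies at chr3:82846334-82846393 on the minus strand, the Kng1 probe at chr16:23081700-23081759, the Ccl7 probe at chr11:81860656-81860715 and the Ptgs2 probe at chr1:151954744-151954803, the last 3 on the plus strand.
Fgb: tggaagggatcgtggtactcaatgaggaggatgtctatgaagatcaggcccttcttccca
Kng1: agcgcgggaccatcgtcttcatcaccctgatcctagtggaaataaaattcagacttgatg
Ccl7: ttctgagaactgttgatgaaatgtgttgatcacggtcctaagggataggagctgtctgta
Ptgs2: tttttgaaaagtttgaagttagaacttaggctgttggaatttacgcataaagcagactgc
The neighbouring paralog Kng2 is close in sequence to Kng1, so the signals of the pair may be mixed. Gsta1 and Gsta2, Cxcl1 to Cxcl3, Reg3b and Reg3g, Tgtp1 and Tgtp2, the Gbp genes and the Serpina3 genes named below carry the same uncertainty.

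**Figure D1:**
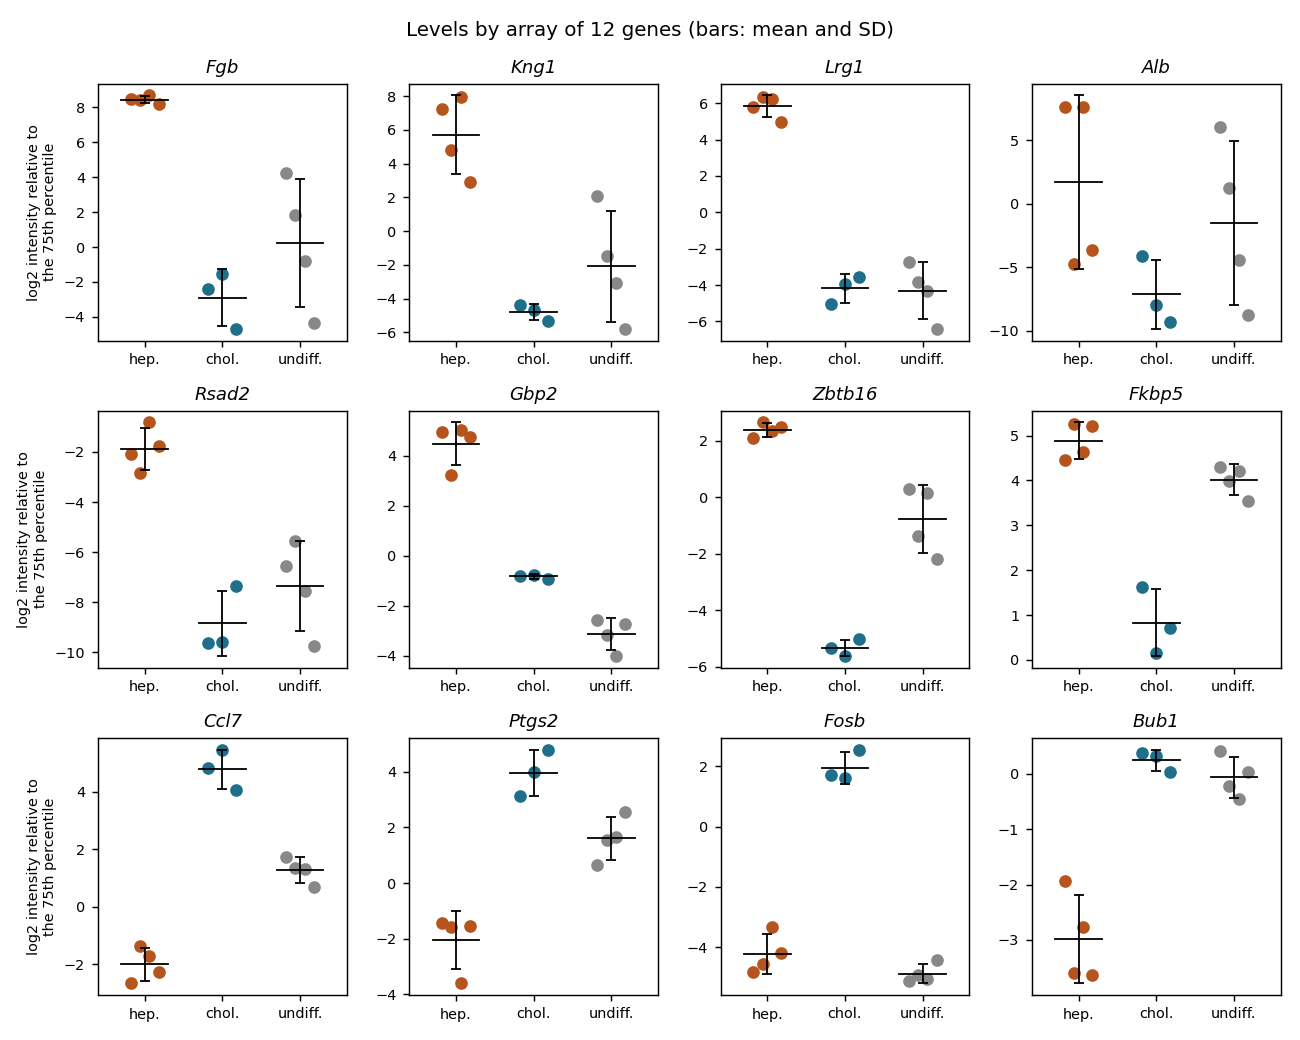
Levels of 12 genes on each array (log2 intensity over the array's own 75th percentile) in the hepatocyte condition (4 arrays, orange), the cholangiocyte condition (3 arrays, blue) and undifferentiated cells (4 arrays, grey), with the mean and SD as bars. Alb is the one of the 12 genes whose hepatocyte-condition arrays reach down to the cholangiocyte-condition range, with arrays 1 and 3 at 7.62 and 7.58 and arrays 2 and 4 at -4.76 and -3.65.

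Acute phase genes were higher as a group. Of 30 measured members 21 were higher, none was lower and 9 did not pass, against 6.97% of all genes higher. The median difference was 3.53, against -0.13 for all genes. The serum amyloid A genes were not alike. Saa2 differed by 9.33 ± 1.93, with 2 of 3 cholangiocyte-condition arrays well above background (limma adjusted p = 0.00496). Saa1 and Saa3 differed by 3.06 ± 1.82 and 0.03 ± 1.64, with overlapping groups, and did not pass (limma adjusted p = 0.315 and 0.996). Lrg1, a leucine-rich glycoprotein of plasma, read 5.80, 6.31, 6.21 and 4.99 in the hepatocyte condition, against -5.05, -3.93 and -3.53 in the cholangiocyte condition (difference 10.00 ± 0.81, limma adjusted p = 6.99e-06). Serpina3n, a protease inhibitor, was not well above background on any cholangiocyte-condition array. It was at least 3069-fold higher in the hepatocyte condition, where such a bound sets the bright mean against the lowest signal counted as well above background. Fgg, the fibrinogen gamma chain, counted here among plasma proteins, was at least 29550-fold higher, Kng2, from that list too, at least 1366-fold, and the acute phase member Hamp, the iron hormone hepcidin, at least 165-fold (limma adjusted p = 6.51e-05, 0.000254 and 0.000924). Reg3b and Reg3g, lectins that act against bacteria and belong to neither list, were at least 3795-fold and 1612-fold higher by the same measure (limma adjusted p = 1.73e-05 and 0.000117). Haptoglobin, Hp, differed by 7.23 ± 1.22 and the plasma inhibitor Itih4 by 10.36 ± 1.30 (limma adjusted p = 0.00143 and 0.000175). Socs3, the feedback inhibitor of Stat3 signalling, differed by 4.18 ± 0.42 and Stat3 itself by 2.02 ± 0.18 (limma adjusted p = 3.04e-05 and 1.10e-05), 2 members named after their values were seen. Cebpd, a transcription factor of the acute phase, was 5.17, 5.02, 5.40 and 5.46 in the hepatocyte condition, against 1.71, 2.11 and 1.26 in the cholangiocyte condition, while Cebpb differed by 0.24 ± 0.18 (limma adjusted p = 2.50e-05 and 0.443). Between 19 and 25 members were higher under every alternative run, which includes both pairs left out.

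The level of plasma protein genes split the hepatocyte-condition arrays. Of 48 measured plasma protein genes, some of them also acute phase members, 20 (41.7%) were higher, against 6.97% of all genes, and none was lower. The median difference of the list was 5.09 (4.48 with genes below background held at their bound). The mean level of the list was 3.80, 0.00, 4.30 and -0.83 on hepatocyte-condition arrays 1 to 4, against -3.20, -3.06 and -3.76 in the cholangiocyte condition. Arrays 1 and 3 were thus well above arrays 2 and 4, and all 4 were above the cholangiocyte condition. The acute phase list had the same order, with mean levels of 3.002, 1.76, 3.63 and 0.36 in the hepatocyte condition, against -2.52, -1.96 and -3.23 in the cholangiocyte condition. Without arrays 2 and 4 there were 38 higher members, and without arrays 1 and 3 there were 15, with 1 lower. Serpina10, an inhibitor of coagulation factors, did not follow the split, at 3.66, 4.80, 3.77 and 3.46 in the hepatocyte condition, against -4.66, -3.92 and -4.49 in the cholangiocyte condition (difference 8.28 ± 0.32, limma adjusted p = 5.42e-09). Alb, serum albumin, followed it fully, at 7.62, -4.76, 7.58 and -3.65 in the hepatocyte condition, against -4.10, -7.96 and -9.32 in the cholangiocyte condition. The groups overlapped, and the difference of 8.82 ± 3.50 did not pass (limma adjusted p = 0.112, and 0.0148 without arrays 2 and 4). Apob, the main protein of very-low-density lipoprotein, was high in both conditions and differed by -0.02 ± 0.36 (limma adjusted p = 0.986). In bulk RNA of this kind, fewer cells that express a gene and less RNA per cell cannot be told apart.

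Complement genes followed the acute phase in part, with 8 of 26 (30.8%) higher, against 6.97% of all genes, and none lower. C3, the central component, read 8.28, 8.27, 8.41 and 8.43 in the hepatocyte condition, against 5.49, 4.50 and 3.12 in the cholangiocyte condition (difference 3.98 ± 0.74, limma adjusted p = 0.00265). C4b differed by 8.90 ± 0.81 and the inhibitor Serping1 by 5.60 ± 0.49 (limma adjusted p = 1.36e-05 and 1.03e-05). The regulators C4bp and Cfhr2 differed by 5.82 ± 0.69 and 5.11 ± 0.48 (limma adjusted p = 0.000114 and 2.06e-05). Without hepatocyte-condition arrays 2 and 4 the count was 15, and without arrays 1 and 3 it was 6.

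Metabolic genes of the hepatocyte split the hepatocyte-condition arrays as well. The 36 urea cycle and amino acid genes averaged 0.37, -3.12, 0.59 and -3.58 on hepatocyte-condition arrays 1 to 4, against -3.52, -3.55 and -3.90 in the cholangiocyte condition, so arrays 2 and 4 lay in or near the range of the cholangiocyte condition. Of these genes 7 (19.4%) were higher, against 6.97% of all genes, and none was lower. However, 28 were higher without arrays 2 and 4, and 4 without arrays 1 and 3. Single arrays moved this count too, to 16 without hepatocyte-condition array 4, to 11 without array 2, and to 4 without hepatocyte-condition array 1 or 3 or cholangiocyte-condition array 2 or 3. Ahcy, which clears S-adenosylhomocysteine, was higher on every array, at 4.79, 5.10, 5.47 and 4.21 in the hepatocyte condition, against 1.66, 1.26 and 1.12 in the cholangiocyte condition (difference 3.55 ± 0.39, limma adjusted p = 6.25e-05). Glul, glutamine synthetase, differed by 2.08 ± 0.42 (limma adjusted p = 0.00415). Of 19 genes of glucose and glycogen metabolism 5 (26.3%) were higher, against 6.97% of all genes, and none lower. Leaving out a hepatocyte-condition or cholangiocyte-condition array gave 3 to 8 (3 without hepatocyte-condition array 1 or 3 or cholangiocyte-condition array 1 or 3, and 8 without hepatocyte-condition array 4). The count was 12 without hepatocyte-condition arrays 2 and 4, and 2 without arrays 1 and 3. Slc37a4, the glucose-6-phosphate transporter of the endoplasmic reticulum, read 4.78, 3.69, 4.90 and 3.51 in the hepatocyte condition, against 1.85, 1.71 and 1.62 in the cholangiocyte condition (difference 2.49 ± 0.38, limma adjusted p = 0.000709). Ppara, the nuclear receptor that drives fatty acid oxidation, differed by 3.79 ± 0.60 (limma adjusted p = 0.000964).

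**Figure D2:**
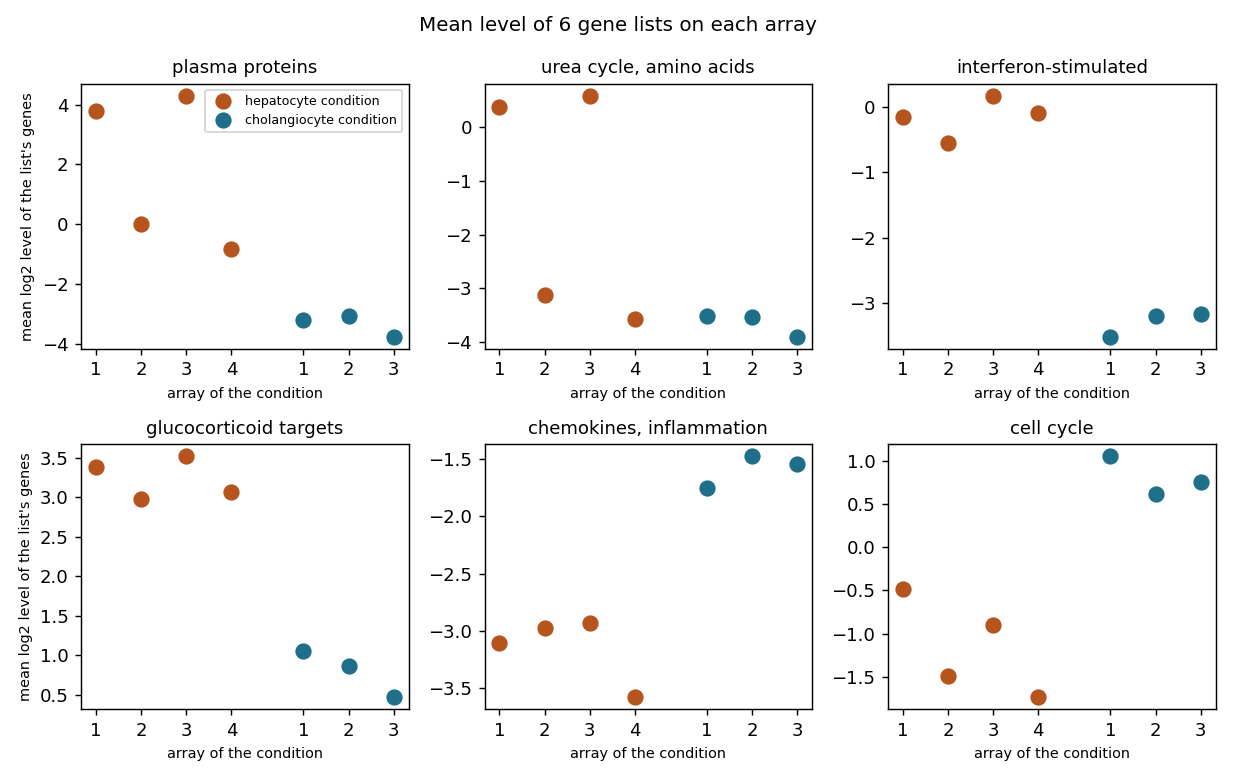
Mean log2 level of the measured genes of 6 lists on each array of the hepatocyte condition (orange) and the cholangiocyte condition (blue). Plasma protein and urea cycle genes are spread over more than 4 log2 units among the 4 hepatocyte-condition arrays, with arrays 1 and 3 high, while the interferon-stimulated and glucocorticoid lists stay within 1 log2 unit of one another on those arrays.

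Drug metabolism genes were higher in part, and 26 of 44 did not pass. Of 44 genes of cytochromes P450 and conjugating enzymes 14 (31.8%) were higher, against 6.97% of all genes. The 4 lower ones (9.09%) were near the 8.41% of all genes. The higher genes numbered 8 or 9 without hepatocyte-condition array 1 or 3 or cholangiocyte-condition array 1 or 3. Without hepatocyte-condition arrays 2 and 4 there were 18 higher genes, and without arrays 1 and 3 there were 5. The mean level of the list was -0.14, -2.18, -0.34 and -2.97 in the hepatocyte condition, against -2.58, -2.73 and -2.97 in the cholangiocyte condition, so arrays 2 and 4 lay in or near the range of the cholangiocyte condition here too. Sult1a1, a phenol sulfotransferase, differed by 7.69 ± 0.85 and Cyp2d22 by 4.29 ± 0.72 (limma adjusted p = 7.03e-05 and 0.0014). The 4 lower genes were Cyp1a1 and 3 alpha-class glutathione transferases. Gsta4, which conjugates lipid aldehydes, read -0.68, -1.34, -0.41 and -0.30 in the hepatocyte condition, against 4.12, 2.65 and 3.19 in the cholangiocyte condition (limma adjusted p = 0.000131). Gsta1 and Gsta2 differed by -5.97 ± 1.03 and -5.73 ± 1.03 (limma adjusted p = 0.00168 and 0.00205). Cyp1a1, the classic target of the aryl hydrocarbon receptor, read -2.31, -5.47, -2.35 and -7.50 in the hepatocyte condition, against 3.15, 3.24 and 3.95 in the cholangiocyte condition, and -1.58, -1.32, -2.73 and -9.36 in undifferentiated cells. Its difference of -7.86 ± 1.65 (limma adjusted p = 0.00556) was not called without hepatocyte-condition arrays 2 and 4, and 3 of the 4 hepatocyte-condition arrays were well above background. Tiparp and Nqo1, other known targets of that receptor singled out after their values were seen, differed by -1.80 ± 0.29 and -3.61 ± 0.84 (limma adjusted p = 0.000941 and 0.0101), and Cyp1b1, a further target, differed by -1.40 ± 0.96 (limma adjusted p = 0.4).

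Of 25 liver transcription factors 6 (24%) were higher, against 6.97% of all genes, and none was lower, with a median difference of 0.24. The count was 3 without hepatocyte-condition arrays 1 and 3. Hnf4a, the central regulator of hepatocyte genes, read 5.72, 4.74, 5.96 and 4.46 in the hepatocyte condition, against 5.28, 5.21 and 5.18 in the cholangiocyte condition (difference -0.01 ± 0.48, limma adjusted p = 0.997). Its groups overlapped, and undifferentiated cells were at 5.33 on average. Foxa2, a pioneer factor of the endoderm, differed by 0.11 ± 0.22 (limma adjusted p = 0.816). Creb3l3, a factor of the liver secretory response, differed by 4.95 ± 1.01 and Onecut1, which acts in both hepatocyte and bile duct development, by 3.92 ± 0.86 (limma adjusted p = 0.00464 and 0.0071). Creb3l3 was not called without hepatocyte-condition arrays 1 and 3, and Onecut1 was not called without arrays 2 and 4.

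Markers of cholangiocytes did not set the cholangiocyte condition apart as a group. Of 44 measured biliary markers 6 were higher and 6 lower in the hepatocyte condition, shares of 13.6% each against 6.97% and 8.41% of all genes, with a median difference of -0.14. In primary cells the same list had 4 members higher and 33 lower in hepatocytes than in cholangiocytes, against 28% and 21.6% of all genes. Krt19 read 4.36, 5.16, 3.79 and 4.66 in the hepatocyte condition, against 6.72, 5.85 and 6.99 in the cholangiocyte condition (difference -2.03 ± 0.54, limma adjusted p = 0.0216). This call was lost without hepatocyte-condition array 3 and without cholangiocyte-condition array 1 or 3. Undifferentiated cells already held Krt19 at 6.80, 6.41, 7.03 and 5.66, and the cholangiocyte condition was not called against them (limma adjusted p = 0.984). Krt7 read 3.75, 4.48, 3.27 and 4.12 in the hepatocyte condition, against 3.49, 3.35 and 3.51 in the cholangiocyte condition, and its groups overlapped (limma adjusted p = 0.473). Sox9 differed by 1.01 ± 0.60, the osteopontin gene Spp1 by 1.37 ± 0.48, Epcam by 1.15 ± 0.78 and the chloride channel Cftr by -0.69 ± 1.46, none of which passed (limma adjusted p = 0.308, 0.0714, 0.393 and 0.828). The name of the cholangiocyte condition is thus used here as the label gives it.

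Among the biliary genes that passed, the direction was mixed. Itgb6, an integrin chain of injured epithelium that activates TGF-beta, read -1.93, -4.85, -3.01 and -6.24 in the hepatocyte condition, against 1.80, 1.19 and 1.69 in the cholangiocyte condition (difference -5.57 ± 0.81, limma adjusted p = 0.000513). Car2, a carbonic anhydrase used in bicarbonate secretion, differed by -2.91 ± 0.62 and keratin 8, Krt8, by -1.30 ± 0.19 (limma adjusted p = 0.00609 and 0.000554). Cldn3, a tight junction protein, was -1.34, -1.45, -0.54 and 0.35 in the hepatocyte condition, against -6.16, -5.14 and -7.25 in the cholangiocyte condition (difference 5.44 ± 0.81, limma adjusted p = 0.000584). Undifferentiated cells had Cldn3 at -1.14 on average, and the cholangiocyte condition was -5.04 ± 0.81 from them (limma adjusted p = 0.00707). Mmp7, a matrix protease raised in bile duct disease, was 2.47, 3.39, -0.16 and -0.17 in the hepatocyte condition, against -4.93, -5.04 and -3.87 in the cholangiocyte condition (difference 5.99 ± 0.84, limma adjusted p = 0.000406). Slc10a2, the apical bile acid transporter, differed by 2.72 ± 0.56 (limma adjusted p = 0.00464).

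**Figure D3:**
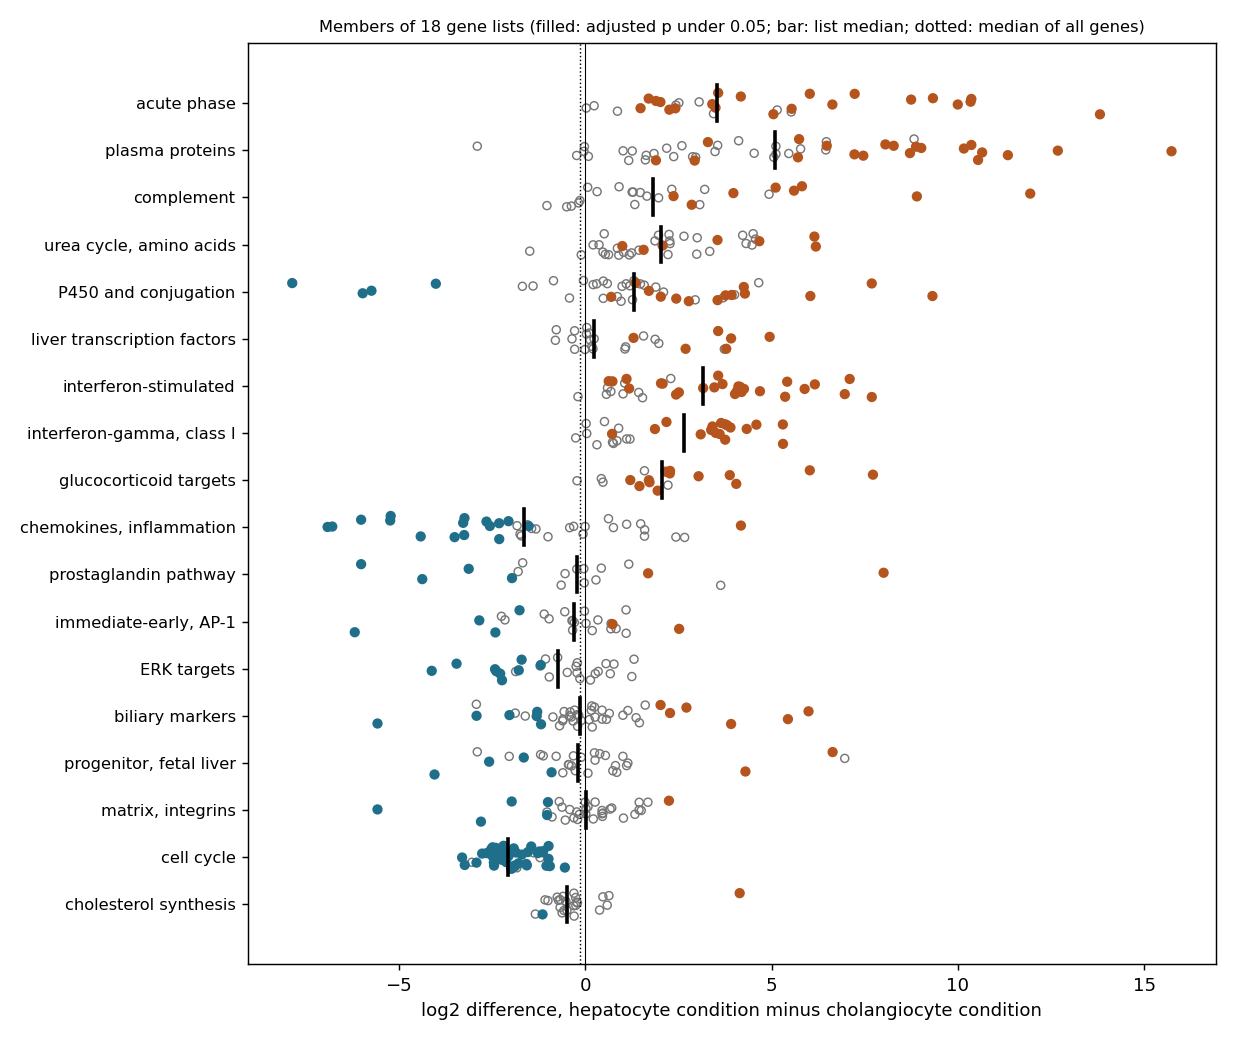
Difference between the hepatocyte condition and the cholangiocyte condition (log2, horizontal axis) for every measured gene of 18 lists, 1 point per gene, filled where the adjusted p is under 0.05, with the list median as a bar and the median of all genes (-0.13) dotted. Acute phase, interferon and glucocorticoid genes lie to the right, chemokines and cell cycle genes to the left, and biliary markers on both sides of 0.

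Genes induced by interferon were higher in the hepatocyte condition. Of 35 interferon-stimulated genes 26 (74.3%) were higher, against 6.97% of all genes, and none lower, with a median difference of 3.17. Every hepatocyte-condition array lay above every cholangiocyte-condition array in 30 of them, against 11% of all genes. Oas2, which makes the activator of RNase L, read 1.37, 1.68, 0.85 and 0.88 in the hepatocyte condition, against -7.49, -6.45 and -5.54 in the cholangiocyte condition, where 2 of 3 arrays were well above background (difference 7.69 ± 0.83, limma adjusted p = 5.56e-05). Ifit1, which binds viral RNA, read 1.55, -0.08, 1.51 and 1.15 in the hepatocyte condition, against -5.09, -5.45 and -4.03 in the cholangiocyte condition (difference 5.89 ± 0.56, limma adjusted p = 2.06e-05). Rsad2, viperin, differed by 6.96 ± 0.81 and Ifi44 by 7.10 ± 0.59, each with 1 of 3 cholangiocyte-condition arrays well above background (limma adjusted p = 9.99e-05 and 7.98e-06). Abundant members that did not pass included the viral RNA sensor Ddx58 at -0.19 ± 0.31 and the kinase Eif2ak2 at 0.57 ± 0.24 (limma adjusted p = 0.761 and 0.13). Against undifferentiated cells, whose 4 arrays both comparisons share, 21 members were higher and none lower in the hepatocyte condition (background 7.62% and 7.7%), and none was higher and 1 lower in the cholangiocyte condition (background 0.785% and 0.597%). In primary cells 11 members were higher and 8 lower in hepatocytes than in cholangiocytes, against 28% and 21.6% of all genes.

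Genes of the interferon-gamma response and of antigen presentation by class I molecules moved the same way. Of these, 17 of 28 (60.7%) were higher, against 6.97% of all genes, and none was lower, with a median difference of 2.64. Gbp2, a guanylate-binding protein, read 4.94, 3.22, 5.02 and 4.74 in the hepatocyte condition, against -0.80, -0.76 and -0.93 in the cholangiocyte condition (difference 5.31 ± 0.45, limma adjusted p = 8.70e-06). Gbp3 differed by 5.30 ± 0.38 and the GTPase Tgtp2 by 7.41 ± 0.39 (limma adjusted p = 1.93e-06 and 9.64e-08). Psmb8, a subunit of the immunoproteasome, differed by 3.90 ± 0.46 (limma adjusted p = 0.000108). Gbp2 and Gbp3 were also higher in the cholangiocyte condition than in undifferentiated cells, by 2.29 ± 0.45 and 2.19 ± 0.38, while the hepatocyte condition exceeded undifferentiated cells by 7.60 ± 0.42 and 7.50 ± 0.35 (limma adjusted p = 0.0236, 0.0114, 1.57e-07 and 2.14e-08). The class I genes B2m and H2-K1 differed by 0.32 ± 0.22 and 1.20 ± 0.48 and did not pass (limma adjusted p = 0.399 and 0.113). Of 10 class II genes 1 (10%), H2-Ab1, was higher, near the 6.97% of all genes, and none was lower. H2-Ab1 differed by 4.53 ± 0.93 (limma adjusted p = 0.00474), with 2 of 3 cholangiocyte-condition arrays well above background. Without hepatocyte-condition array 3, 2 class II genes were called. Since leukocytes carry class II molecules and many interferon-induced genes, their markers were measured too. Of 32 leukocyte and Kupffer cell markers 3 (9.38%) were higher, near the 6.97% of all genes, and none was lower, against 8.41%. The 3 were Cd52, Tyrobp and Gzmb, all below background in the cholangiocyte condition. With normexp background correction 0 were higher, Gzmb was also not called without hepatocyte-condition array 1 or 3 or any 1 of the 3 cholangiocyte-condition arrays, and 1 was lower without hepatocyte-condition array 2. The mean level of these 32 genes ranged between -5.24 and -4.39 in the hepatocyte condition, against -5.22 to -4.99 in the cholangiocyte condition. The leukocyte genes Cd14, Itgam and Elane were called under no alternative, and Cd4 was called under 2. Another 3 markers were singled out after their values were seen and do not stand for the list. The Kupffer cell lectin Clec4f and the macrophage lysozyme Lyz2 were well above background on 0 of the 7 arrays. Ptprc, the pan-leukocyte antigen CD45, differed by 1.65 ± 0.58 (limma adjusted p = 0.0707). The part of leukocytes in the interferon result was not tested.

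Proximal promoters of the interferon lists often held GAAA and again GAAA, parted by 2 bases, the core of the interferon-stimulated response element, on either strand. RefSeq promoters of GRCm38.p6, 300 bases around the start of each gene, were at hand for 25 of the 35 interferon-stimulated genes and 22 of the 28 interferon-gamma and class I genes, and 13 (52%) and 11 (50%) held the motif. Of all 27025 genes with such promoters 3.99% did, and 3.44% of the 32851 promoters. The promoters of Rsad2 (chr12:26456403-26456702, minus strand), Ifit1 (chr19:34640639-34640938, plus strand) and Gbp2 (chr3:142620413-142620712, plus strand) are shown, with the matches in capitals. They were picked among genes that hold the motif and had large differences. Oas2 and Ifi44, with larger differences, were not among the genes found to hold it. Bst2, Ddx58 and Eif2ak2 held it and were not called.
Rsad2: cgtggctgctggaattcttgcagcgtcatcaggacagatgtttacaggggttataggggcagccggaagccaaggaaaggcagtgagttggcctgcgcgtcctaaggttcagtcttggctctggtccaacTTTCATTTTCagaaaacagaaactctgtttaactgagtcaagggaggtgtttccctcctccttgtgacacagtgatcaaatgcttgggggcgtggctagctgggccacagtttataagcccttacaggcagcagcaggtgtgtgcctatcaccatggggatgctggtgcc
Ifit1: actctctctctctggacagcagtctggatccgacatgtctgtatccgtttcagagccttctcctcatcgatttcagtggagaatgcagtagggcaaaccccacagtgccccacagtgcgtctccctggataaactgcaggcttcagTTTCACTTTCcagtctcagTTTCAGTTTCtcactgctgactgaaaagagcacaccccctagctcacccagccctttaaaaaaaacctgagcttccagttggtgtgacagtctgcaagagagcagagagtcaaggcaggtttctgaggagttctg
Gbp2: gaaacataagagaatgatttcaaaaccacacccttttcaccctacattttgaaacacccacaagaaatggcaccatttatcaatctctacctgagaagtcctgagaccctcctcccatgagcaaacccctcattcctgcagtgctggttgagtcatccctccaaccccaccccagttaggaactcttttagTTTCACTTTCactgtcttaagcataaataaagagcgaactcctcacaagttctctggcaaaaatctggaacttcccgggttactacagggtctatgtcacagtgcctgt
The match begins 120 bases before the start in Rsad2, 104 and 85 bases before it in Ifit1, and 59 bases before it in Gbp2. A match describes the sequence and not binding in these cells.

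Glucocorticoid-responsive genes were higher in the hepatocyte condition and, for some, lower in the cholangiocyte condition than at the start. Of 18 measured members 13 (72.2%) were higher, against 6.97% of all genes, and none lower, with a median difference of 2.05. The count was 8 without hepatocyte-condition array 1 or 3 or cholangiocyte-condition array 2 or 3, and 9 without either hepatocyte-condition pair. Zbtb16, a zinc finger protein that glucocorticoids induce strongly in many cells, read 2.08, 2.64, 2.32 and 2.50 in the hepatocyte condition, against -5.35, -5.62 and -5.03 in the cholangiocyte condition (difference 7.72 ± 0.49, limma adjusted p = 7.06e-07). Undifferentiated cells lay between, at 0.28, -1.39, 0.15 and -2.19. The hepatocyte condition was 3.17 ± 0.45 above and the cholangiocyte condition -4.55 ± 0.49 from that level (limma adjusted p = 0.000463 and 0.000397). Fkbp5, a co-chaperone that limits the glucocorticoid receptor, read 4.45, 5.25, 4.63 and 5.21 in the hepatocyte condition, against 1.63, 0.15 and 0.72 in the cholangiocyte condition, and 4.31, 3.98, 4.22 and 3.55 in undifferentiated cells. It differed by 4.05 ± 0.43 between the conditions, by 0.87 ± 0.40 between the hepatocyte condition and undifferentiated cells, and by -3.18 ± 0.43 between the cholangiocyte condition and undifferentiated cells (limma adjusted p = 5.06e-05, 0.172 and 0.00266). The gap between the conditions in Fkbp5 was thus mostly a lower level in the cholangiocyte condition. Tsc22d3, the glucocorticoid-induced leucine zipper, differed by 3.88 ± 0.52 (limma adjusted p = 0.00027). Per1, a clock gene that glucocorticoids induce, differed by 1.95 ± 0.33 (limma adjusted p = 0.00153), a member named after its value was seen. Nr3c1, the receptor itself, differed by 0.44 ± 0.23 and Tat, a target in mature hepatocytes, by 0.48 ± 0.55 (limma adjusted p = 0.26 and 0.656). In primary cells 7 members were higher and 6 lower in hepatocytes than in cholangiocytes, where 28% and 21.6% of all genes were. Of 14 members with a promoter 2 held GNACA and TGTNC parted by 3 bases, the letters of the response element on either strand, 14.3% against 0.537% of all genes. These were Mt1 and Sgk1, and Mt1 was not called between the conditions.

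**Figure D4:**
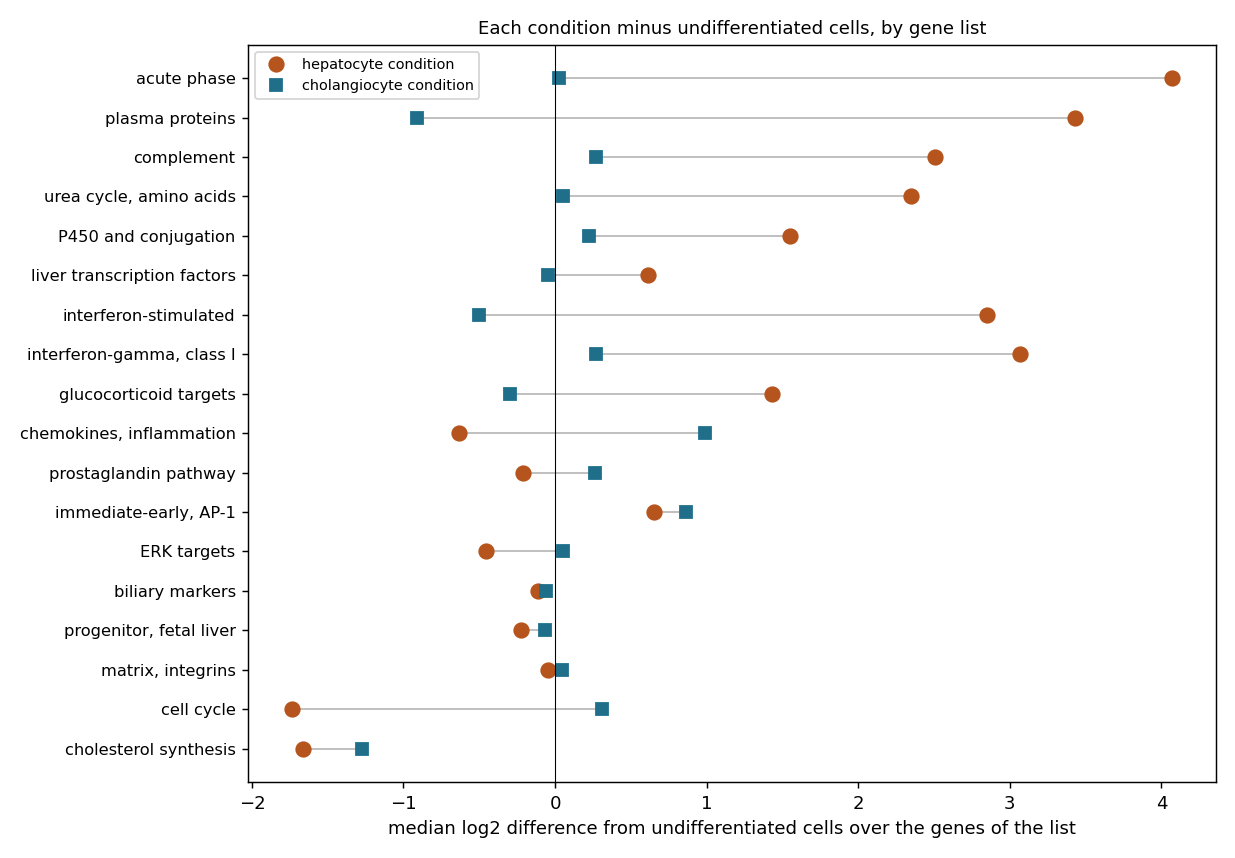
Median difference from undifferentiated cells (log2, horizontal axis) over the genes of 18 lists, for the hepatocyte condition (circles) and the cholangiocyte condition (squares), which share the 4 undifferentiated arrays. The acute phase list lies at 4.07 for the hepatocyte condition against 0.03 for the cholangiocyte condition, and the cell cycle list at -1.73 and 0.31.

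Many chemokines and inflammatory mediators were lower in the hepatocyte condition. Of 36 measured members 16 were lower, 1 was higher and 19 did not pass, with a median difference of -1.63, against 8.41% of all genes lower. Ccl2, the main monocyte chemokine, read 3.87, 4.28, 2.66 and 2.73 in the hepatocyte condition, against 7.70, 7.84 and 7.83 in the cholangiocyte condition and 6.25, 6.91, 7.56 and 7.11 in undifferentiated cells (difference between the conditions -4.41 ± 0.58, limma adjusted p = 0.000246). Its level in the cholangiocyte condition was thus near that of undifferentiated cells. Cxcl3, which draws neutrophils, was -4.74, -5.64, -4.49 and -5.55 in the hepatocyte condition, against -0.41, 0.81 and -0.06 in the cholangiocyte condition (difference -5.21 ± 0.45, limma adjusted p = 9.04e-06). Cxcl2, a chemokine of the same kind, was well above background on 2 of 4 hepatocyte-condition arrays and differed by -5.23 ± 1.16 (limma adjusted p = 0.00774). Csf2, the growth factor GM-CSF, was not well above background on any hepatocyte-condition array and was at least 68.8-fold higher in the cholangiocyte condition (limma adjusted p = 3.78e-05). In Ccl7 the 2 conditions departed from undifferentiated cells in opposite directions. The hepatocyte condition was -3.28 ± 0.49 and the cholangiocyte condition 3.50 ± 0.53 from them (limma adjusted p = 0.000658 and 0.00495). Cxcl10, an interferon-induced chemokine, was higher than in undifferentiated cells in both conditions, by 4.11 ± 0.43 (hepatocyte) and 2.99 ± 0.46 (cholangiocyte), and differed by 1.11 ± 0.46 between them (limma adjusted p = 4.58e-05, 0.00595 and 0.131). The 1 higher member, Cxcl12, was not called without hepatocyte-condition array 3 or 4 or cholangiocyte-condition array 2 or 3. Over the alternatives 11 to 20 members were lower.

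Of 28 members with a promoter at hand, 9 (32.1%) held GGG and TTTCC parted by 2 bases, a form of the NF-kappaB site, on either strand, against 1.89% of all genes and 1.63% of promoters. The promoters of Cxcl3 (chr5:90785851-90786150) and Cxcl2 (chr5:90903649-90903948), both on the plus strand, are shown with the matches in capitals. These neutrophil chemokines were picked among genes that hold the motif and had large gaps. Ccl7, Ptgs2 and Csf2, with larger gaps, were not among the 9, and Csf1 held the motif and was not called.
Cxcl3: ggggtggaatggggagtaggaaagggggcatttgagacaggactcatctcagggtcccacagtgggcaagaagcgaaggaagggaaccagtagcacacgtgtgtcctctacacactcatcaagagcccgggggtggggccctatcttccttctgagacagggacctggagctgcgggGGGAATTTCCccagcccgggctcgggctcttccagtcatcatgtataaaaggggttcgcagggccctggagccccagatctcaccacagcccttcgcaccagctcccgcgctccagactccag
Cxcl2: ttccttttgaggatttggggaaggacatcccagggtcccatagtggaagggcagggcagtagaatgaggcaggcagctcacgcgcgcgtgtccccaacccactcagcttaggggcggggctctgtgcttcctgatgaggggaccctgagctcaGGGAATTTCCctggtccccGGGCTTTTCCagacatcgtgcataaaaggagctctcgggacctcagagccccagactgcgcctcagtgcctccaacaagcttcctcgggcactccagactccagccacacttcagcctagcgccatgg
One match lies 73 bases before the start in Cxcl3 and 2 lie 97 and 78 bases before it in Cxcl2.

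The prostaglandin pathway differed at single steps. Of 17 genes 2 (11.8%) were higher and 4 (23.5%) lower, against 6.97% and 8.41% of all genes. The higher count was 1 without hepatocyte-condition array 3 or cholangiocyte-condition array 1 or 2. Beside Ptgs2, the lower genes were the thromboxane synthase Tbxas1 (-3.12 ± 0.56), the prostaglandin exporter Abcc4 (-1.96 ± 0.37) and Hpgds (limma adjusted p = 0.00204, 0.00265 and 0.02), of which Hpgds was not called without hepatocyte-condition array 2 or 3 or cholangiocyte-condition array 2. The prostaglandin E synthases Ptges, Ptges2 and Ptges3 differed by 0.43 ± 0.15, -0.02 ± 0.18 and -0.54 ± 0.18 and did not pass (limma adjusted p = 0.0691, 0.959 and 0.0538). Ptger3, a receptor for prostaglandin E2, ran opposite to Ptgs2. It read 0.73, 2.50, 1.08 and 1.84 in the hepatocyte condition, against -6.13, -7.27 and -6.01 in the cholangiocyte condition and -9.29, -10.06, -9.83 and -9.72 in undifferentiated cells (difference between the conditions 8.01 ± 0.47, limma adjusted p = 3.51e-07). Of the cholangiocyte-condition arrays 2 of 3 were well above background, and every hepatocyte-condition array lay above them all.

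Some ligands of the epidermal growth factor receptor and some targets of the ERK kinases were lower. Of 27 measured ERK-responsive genes 9 were lower, none was higher and 18 did not pass, against 8.41% of all genes lower, with a median difference of -0.74. Areg, the ligand amphiregulin, read -0.96, -2.42, -0.73 and -1.91 in the hepatocyte condition, against 2.44, 2.88 and 2.50 in the cholangiocyte condition (difference -4.11 ± 0.53, limma adjusted p = 0.000222). The ligands Ereg and Btc differed by -3.45 ± 0.42 and -2.42 ± 0.41, the ERK phosphatase Dusp4 by -2.38 ± 0.33 and the urokinase receptor Plaur by -2.28 ± 0.32 (limma adjusted p = 0.000149, 0.00151, 0.000398 and 0.000393). Against undifferentiated cells, 10 of the 27 members were lower in the hepatocyte condition, where 7.7% of all genes were. The higher count was 1 without cholangiocyte-condition array 1. Of 24 immediate-early and AP-1 genes 4 (16.7%) were lower, against 8.41% of all genes. The 2 higher ones (8.33%), Egr2 and Mafk, were near the 6.97% of all genes. In this list 0 were higher without hepatocyte-condition array 2, 3 or 4 or any of the 3 cholangiocyte-condition arrays, while 2 were lower without hepatocyte-condition arrays 1 and 3. Fosb, a subunit of AP-1, read -4.82, -4.57, -3.33 and -4.19 in the hepatocyte condition, against 1.71, 1.60 and 2.56 in the cholangiocyte condition and -5.13, -4.90, -5.04 and -4.42 in undifferentiated cells. The cholangiocyte condition alone stood apart in Fosb, with a difference of -6.18 ± 0.76 between the conditions, 6.83 ± 0.76 between the cholangiocyte condition and undifferentiated cells, and 0.65 ± 0.71 between the hepatocyte condition and undifferentiated cells (limma adjusted p = 0.00015, 0.000553 and 0.63). Fosl1, another subunit, differed by -2.84 ± 0.44 and Atf3, a stress-induced factor, by -2.41 ± 0.56 (limma adjusted p = 0.000745 and 0.0104), Atf3 not being called without hepatocyte-condition arrays 1 and 3. Egr1 and Dusp1 differed by 0.19 ± 0.85 and -0.22 ± 0.47 (limma adjusted p = 0.925 and 0.833).

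Genes of cell division were lower in the hepatocyte condition nearly throughout. Of 50 measured cell cycle genes 46 (92%) were lower, against 8.41% of all genes, and none higher, with a median difference of -2.06. All 50 lay lower on every hepatocyte-condition array than on every cholangiocyte-condition array, against 16.9% of all genes. Bub1, a kinase of the spindle checkpoint, read -1.94, -3.59, -2.77 and -3.63 in the hepatocyte condition, against 0.39, 0.33 and 0.03 in the cholangiocyte condition and 0.41, -0.23, -0.45 and 0.04 in undifferentiated cells (difference between the conditions -3.23 ± 0.39, limma adjusted p = 0.000125). Kif23, a motor of cytokinesis, differed by -3.30 ± 0.54, Ube2c, which serves the anaphase-promoting complex, by -2.76 ± 0.43 and Birc5, survivin, by -2.22 ± 0.40 (limma adjusted p = 0.00115, 0.00077 and 0.00201). The 4 genes that did not pass were Rrm2, Aurkb, Plk4 and Ccne2, with differences of -1.21, -3.04, -1.39 and -1.83. The mean level of the list was -0.48, -1.49, -0.90 and -1.74 in the hepatocyte condition, against 1.06, 0.62 and 0.76 in the cholangiocyte condition. Arrays 1 and 3 were the higher of the hepatocyte condition and still below all 3 arrays of the other. Without arrays 2 and 4 the count was 24, without arrays 1 and 3 it was 47, and leaving out 1 array gave 35 to 48. Against undifferentiated cells, 39 members were lower and none higher in the hepatocyte condition, where 7.7% and 7.62% of all genes were. In primary cells 2 were higher and 43 lower in hepatocytes than in cholangiocytes, against 28% and 21.6% of all genes.

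Of 41 members with a promoter, 21 (51.2%) held TTTGAA on either strand, the letters of the cell cycle homology region, against 20.2% of all genes, and 29 (70.7%) held CCAAT, against 41.1%. These motifs are short, as their shares in all genes show. The promoters of Ube2c (chr2:164769679-164769978, plus strand) and Kif23 (chr9:61946750-61947049, minus strand) are shown with TTTGAA or its complement in capitals, close to the start in both.
Ube2c: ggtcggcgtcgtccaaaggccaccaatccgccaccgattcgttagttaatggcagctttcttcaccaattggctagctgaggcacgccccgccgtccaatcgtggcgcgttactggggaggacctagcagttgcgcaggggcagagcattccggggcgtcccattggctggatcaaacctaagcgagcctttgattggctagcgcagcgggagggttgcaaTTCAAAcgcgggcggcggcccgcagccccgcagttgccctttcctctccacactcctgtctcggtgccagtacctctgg
Kif23: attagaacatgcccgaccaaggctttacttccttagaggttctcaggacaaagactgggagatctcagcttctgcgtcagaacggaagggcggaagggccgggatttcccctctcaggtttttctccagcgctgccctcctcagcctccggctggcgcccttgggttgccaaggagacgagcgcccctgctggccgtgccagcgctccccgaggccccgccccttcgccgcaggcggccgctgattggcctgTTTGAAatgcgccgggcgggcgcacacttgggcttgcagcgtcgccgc

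Developmental signals differed in single genes rather than in whole lists. Lgr5, a receptor for R-spondins and a Wnt target that marks dividing liver progenitors after injury, read -3.77, -6.52, -4.96 and -7.03 in the hepatocyte condition, against -1.28, -1.36 and -1.95 in the cholangiocyte condition and -5.71, -6.96, -5.39 and -7.42 in undifferentiated cells (3 of 4 hepatocyte-condition arrays well above background, difference between the conditions -4.04 ± 0.67, limma adjusted p = 0.00124). The cholangiocyte condition was 4.84 ± 0.67 above undifferentiated cells (limma adjusted p = 0.00305). Of 28 Wnt genes 2 (7.14%) were higher and 4 (14.3%) lower, not far from the 6.97% and 8.41% of all genes, and the lower count was 2 without either hepatocyte-condition pair and without hepatocyte-condition array 3 or 4 or cholangiocyte-condition array 2. The 2 became 1 without hepatocyte-condition array 1 or 4 or cholangiocyte-condition array 1 or 3. Of 23 Notch pathway genes 1 (4.35%) was higher, or 2 without hepatocyte-condition array 1, and 3 (13.0%) were lower, again near those shares. Jag1, the ligand that drives bile duct formation, read 0.43, 0.19, -0.94 and -0.25 in the hepatocyte condition, against 1.42, 2.27 and 1.84 in the cholangiocyte condition (difference -1.99 ± 0.35, limma adjusted p = 0.00183). The Notch targets Hey1 and Nrarp differed by -4.45 ± 0.75 and -2.53 ± 0.31, and the ligand Dll1 by 2.05 ± 0.42 (limma adjusted p = 0.00144, 0.000132 and 0.00455). The cholangiocyte condition was not called against undifferentiated cells in Jag1, Hey1 or Nrarp (limma adjusted p = 0.978, 0.341 and 0.346). Of 28 TGF-beta ligands and targets 4 (14.3%) were higher and 4 (14.3%) lower, against 6.97% and 8.41% of all genes, with a median difference of -0.05. The higher count was 1 without hepatocyte-condition array 2 or 4 or cholangiocyte-condition array 2, 0 without cholangiocyte-condition array 1, 0 without hepatocyte-condition arrays 2 and 4 together and 6 without arrays 1 and 3. Among the lower members, Bmp2 and Bmp4, ligands of the family, differed by -4.19 ± 0.62 and -2.01 ± 0.38 (limma adjusted p = 0.000596 and 0.0029). Foxl1, the gene that drives the reporter, differed by 0.81 ± 1.41 with overlapping groups (limma adjusted p = 0.782).

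Genes of the extracellular matrix moved both ways. Fn1, fibronectin, which hepatocytes also secrete into plasma, read 7.51, 7.33, 7.55 and 7.50 in the hepatocyte condition, against 4.98, 5.13 and 5.57 in the cholangiocyte condition (difference 2.25 ± 0.21, limma adjusted p = 1.72e-05). Mmp13, a collagenase, was -6.34, -5.60, -4.84 and -8.51 in the hepatocyte condition, where 3 of 4 arrays were well above background, against -1.19, 2.58 and 2.83 in the cholangiocyte condition (difference -7.73 ± 1.07, limma adjusted p = 0.000353). Timp1, an inhibitor of such proteases, differed by 2.44 ± 0.29 (limma adjusted p = 0.00011). Of 34 collagens, laminins and integrins 1 (2.94%) was higher and 5 (14.7%) lower, against 6.97% and 8.41% of all genes, and the lower ones numbered 3 without cholangiocyte-condition array 1 or 2 and 2 without either hepatocyte-condition pair. Of 28 mesenchymal and stellate cell genes 3 (10.7%) were higher and 2 (7.14%) lower, and of 21 endothelial markers none was higher and 2 (9.52%) were lower, or 1 without cholangiocyte-condition array 1.

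Other genes with large gaps belonged to none of the lists above. Flrt3, an adhesion protein that binds fibroblast growth factor receptors, read -1.01, -1.23, -2.47 and -1.44 in the hepatocyte condition, against 3.34, 3.30 and 3.16 in the cholangiocyte condition (limma adjusted p = 5.18e-07). Sprr1a, a protein of stratified and injured epithelium, differed by -6.32 ± 0.92, Clca3b by -5.90 ± 0.77, the glycosyltransferase Galnt14 by -5.77 ± 1.02 and the borate cotransporter family member Slc4a11 by -4.46 ± 0.60 (limma adjusted p = 0.000524, 0.000237, 0.00185 and 0.000294). Pzp, a protease inhibitor of plasma, differed by 8.57 ± 0.91 in the other direction (limma adjusted p = 5.18e-05). Of 30 progenitor and fetal liver genes 2 (6.67%) were higher and 4 (13.3%) lower, near the 6.97% and 8.41% of all genes. Gpc3, a glypican of fetal liver, was at least 25.3-fold higher in the hepatocyte condition, and Igf2, a fetal growth factor, differed by 4.30 ± 0.74 with 1 of 3 cholangiocyte-condition arrays well above background (limma adjusted p = 0.000125 and 0.0016). Gpc3 and Igf2 do not stand for the progenitor and fetal liver list, which had 4 members lower and a median difference of -0.18.

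The differences between the conditions were set beside those of primary cells, which share no array with them. Primary hepatocytes were higher than primary cholangiocytes in 28% of all genes and lower in 21.6% (limma adjusted p under 0.05). Of the 1811 genes higher in the hepatocyte condition, 823 (45.4%) were higher in primary hepatocytes, 363 (20.04%) were lower and 625 (34.5%) were not called. Of the 2184 lower genes, 1037 (47.5%) were lower in primary hepatocytes, 298 (13.6%) were higher and 849 (38.9%) were not called. Across all genes the 2 differences correlated at r = 0.244, a description over genes that are not independent. Plasma proteins matched in direction, with 47 of 48 higher and none lower in primary hepatocytes, and so did cell cycle genes. Lcn2, the iron-scavenging acute phase protein lipocalin 2, went against it, at 6.03 ± 1.21 between the conditions and -5.09 ± 1.37 between primary hepatocytes and primary cholangiocytes (limma adjusted p = 0.00414 and 0.00685). Fkbp5 and Oas2, also higher in the hepatocyte condition, differed by -1.75 ± 0.49 and -3.94 ± 0.94 between primary hepatocytes and primary cholangiocytes (limma adjusted p = 0.0085 and 0.003).

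**Figure D5:**
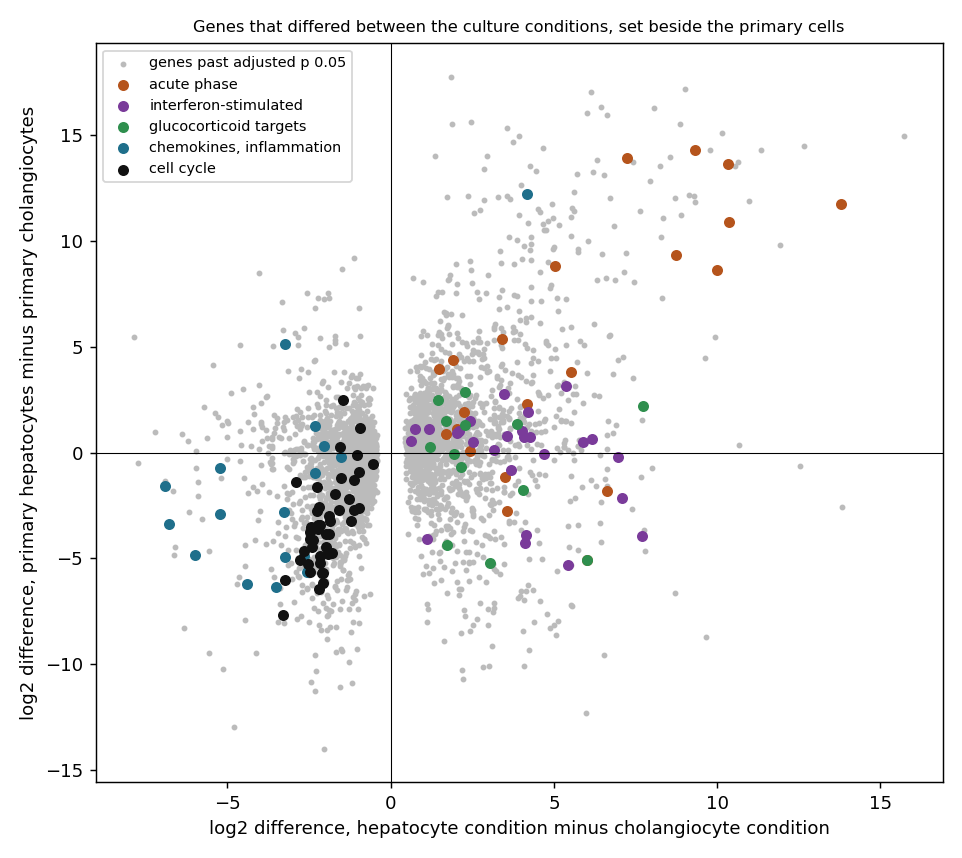
Difference between primary hepatocytes and primary cholangiocytes (log2, vertical axis) against the difference between the hepatocyte condition and the cholangiocyte condition (log2, horizontal axis) for the 3995 genes past an adjusted p of 0.05 between the conditions, with 5 lists in colour. Cell cycle genes lie mostly at the lower left, acute phase genes reach the upper right, and interferon-stimulated and glucocorticoid genes lie on both sides of 0 on the vertical axis.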

How the data were processed

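RNA of 17 samples was amplified (WT-Ovation Pico), labelled with Cy3 and hybridised to one-colour Agilent arrays, per the labels' protocols. The deposited intensities are background-subtracted and spatially detrended spot signals from Feature Extraction 10.5.1.1, per the file headers, while the submitters' processing notes name 9.53. The deposited table of the authors' comparisons gives a signed fold change, treated here as a score, and a false discovery rate in percent, the deposited unit; how it was made is not given in the sources used here. Spot coordinates are those of mm9.

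Replicate spots of a probe were averaged, and each array's 75th percentile of the processed signal over non-control probes was subtracted on the log2 scale from the deposited signals. A probe was kept if well above background on at least 2 of the 17 arrays (32305 probes), and the brightest kept probe stood for a gene (25977 genes, 5272 with several probes). limma 3.58.1 in R 4.3.3 (lmFit, eBayes) was fitted to all 17 arrays, so that the groups share 1 estimate of the spread, with Benjamini-Hochberg adjustment over all genes and a threshold of 0.05. The script was tested on simulated data. The number of arrays limits the precision.

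Named genes were the 15 with the largest difference in each direction (called, well above background on all 7 arrays, not overlapping), the 5 largest lower bounds in each direction, up to 6 called members per direction and up to 4 of the most abundant uncalled members of each of 31 lists, and 16 markers. Genes named after their values were seen are marked as such. The members and lists were chosen with earlier results of these data known. Alternatives covered the dim-probe filter, background correction, scaling, probe choice, samples fitted, slide, replicate number, arrays left out and the authors' deposited table.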

Additional observations from a re-analysis of the deposited data

Results flagged for a closer look

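In 5 of 165 named genes that were called and well above background on all 4 hepatocyte-condition arrays, 1 of these arrays lay far from the other 3. The gap took up most of the range of the group. Chance flags about 1 in 20 such groups, so the 5 are no more than chance would flag and are described only. Ptgs2 was at -3.60 on array 3, which was 2.01 log2 units below the nearest of the other arrays. Gsta1 was at -0.80 on array 4, with a gap of 1.12. Array 2 held the remaining 3 low values, all in genes induced by interferon, too few to read as a pattern. Trim30a was at -3.67 there, Gbp2 at 3.22 and Nlrc5, the activator of class I genes, at -2.11, with gaps of 1.98, 1.52 and 1.47.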

How the results depend on the processing

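The comparison gave 1811 higher and 2184 lower genes. Leaving out 1 array gave 1259 to 1641 higher and 1383 to 1874 lower genes. Without hepatocyte-condition arrays 2 and 4, a choice made after seeing the data, 1427 were higher and 1029 lower, so that 58.1% of the calls were higher, against 45.3%; without arrays 1 and 3 there were 1346 and 1478. The cause was not tested. The other settings gave 1288 to 1952 higher and 1558 to 2473 lower genes, with the smallest higher count under median scaling and the smallest lower count with the 7 arrays fitted alone. The replicate number as a block gave 1527 and 1740. Arrays of the same number in the 2 conditions deviated with r = -0.08, -0.22 and -0.23, and arrays of the same slide with r = -0.08, 0.33 and 0.14. So few values cannot settle if the numbers pair the arrays, which the labels leave unsaid. Of 186 named genes called, 142 stayed called whichever single array was left out. Under normexp background correction 18 named genes lost their call, and 2 further ones, higher at 1.69 and 1.88 before (limma adjusted p = 0.0466 and 0.0245), changed sign and were not called, Ptgfr at -0.11 and Gzmb at -0.084 (limma adjusted p = 0.773 and 0.835). Signal over background limits the genes that are not well above it in 1 condition, for which the bounds depend on the dimmest signal counted as detected.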
